A study of Rattus norvegicus with 18 samples.

Results

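Collagen fibres owe their stability to enzymes that act on proline and lysine, and 8 rat genes for such enzymes were followed here: Lox, Loxl1, Loxl2, Plod1, Plod2, Plod3, P4ha1 and P4hb. The members were all probe sets of the array types RAE230A (array A) and RAE230B (array B) whose platform annotation named 1 of these genes and no other. All 8 genes were found, out of 13811 genes named on the arrays, in 10 probe sets: 8 of the 15923 on array A and 2 of the 15333 on array B. Lox had 2 probe sets on array A and Loxl2 had 2 on array B. All 10 had a mean at or above the 40th percentile of their array type and were tested.

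Prolyl 4-hydroxylase, a tetramer of alpha subunits (P4ha1 makes one of them) and beta subunits (P4hb, also known as protein disulfide isomerase), hydroxylates prolines in the endoplasmic reticulum so that the collagen triple helix is stable at body temperature. The lysyl hydroxylases Plod1, Plod2 and Plod3 hydroxylate lysines of the same chains, and all of these hydroxylases need iron, 2-oxoglutarate and ascorbate. Outside the cell the copper enzymes Lox, Loxl1 and Loxl2 oxidise lysines and hydroxylysines, and the aldehydes so formed join into the crosslinks of collagen and elastin, the main load-bearing fibres of the aorta.

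The samples were rings of thoracic aorta, 2 mm wide, from male Fisher 344 rats aged 5 weeks, kept in serum-free suspension culture. The VEGF group received recombinant human vascular endothelial growth factor at 10 ng/ml on day 13. The Ang1 group received recombinant human angiopoietin-1 at 100 ng/ml on the same day together with a poly-His antibody at 5 µg/ml, which neither other group received, so Ang1 and its antibody cannot be told apart. The untreated group stayed in serum-free medium for 14 days in all. RNA was harvested 20 h after treatment according to the sample labels and 18 h according to the design text, which foresaw 4 to 6 rings per RNA. There were 3 RNAs per group, and each of the 9 was hybridised to both array types, giving 18 samples. In the design text each of 3 animals gave 1 RNA to every group, but no label ties a replicate number to an animal, so p-values measure the spread between these samples. The rings hold several cell types, and a lower level in fewer cells of a type cannot be told apart from less RNA per cell. Levels below are quantile-normalised log2(signal + 16), where signal is the deposited array intensity, differences (first group minus second) are on the same scale and carry the standard error, SE, of a limma model over the 9 arrays of a type, and group values are mean ± SD with n = 3.

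Ang1 replicate 2 and untreated replicate 2 stood apart from the other 7 RNAs. Their median correlation with the other arrays was 0.82 and 0.90 on array A, where the other RNAs had 0.93 to 0.97, and 0.66 and 0.85 on array B, where the others had 0.88 to 0.91. The Gapdh 3′ control signal on array A was 446.9 in Ang1 replicate 2 and 64.4 in untreated replicate 2, against 2217.8 to 3246.8 in the others. The differences of members and of other named genes are therefore also given without these 2 RNAs. The ratio of the actin 3′ to 5′ control signals, which rises as RNA breaks or its copies shorten, spanned 8.79 to 12.4 over the VEGF RNAs, 6.18 to 8.29 over the Ang1 RNAs and 1.86 to 7.70 over the untreated RNAs on array A. It was highest in VEGF replicate 3. The low ends for Ang1 and untreated were those of the 2 RNAs with low Gapdh 3′ signals. Ang1 replicates 1 and 3 both had an actin ratio of 8.29, and untreated replicates 1 and 3 had 4.34 and 7.70. On array B this ratio was 5.24 to 11.9 in VEGF, 1.25 to 7.38 in Ang1 and 3.02 to 5.08 in untreated RNAs. Per the labels, untreated replicate 1 was labelled by a two-cycle protocol and the other RNAs by the standard protocol. On array B, Ang1 replicate 3 had been deposited at another scale, with a trimmed mean signal of 94.8 against 250.03 to 250.09 on the other arrays of that type.

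Upstream windows of 3 members are shown because these genes carry the contrasts described below: P4ha1 and P4hb encode subunits of the same enzyme yet stood at opposite ends in 1 RNA, and Plod2 held the most motif matches of the windows read. RefSeq promoters (build GRCr8) were matched for 6 of the 8 genes, namely Loxl1, Plod1, Plod2, Plod3, P4ha1 and P4hb. Each line gives the 250 bases before the gene's start, read 5′ to 3′ on the gene's strand. The windows are chr20:27844796-27845045 (plus strand) for P4ha1, chr10:106346912-106347161 (minus strand) for P4hb and chr8:101964068-101964317 (plus strand) for Plod2. Capitals mark ACGTG and GCGTG, the core letters of the hypoxia response element, searched on both strands, so that a match on the opposite strand is printed as CACGT or CACGC.
P4ha1: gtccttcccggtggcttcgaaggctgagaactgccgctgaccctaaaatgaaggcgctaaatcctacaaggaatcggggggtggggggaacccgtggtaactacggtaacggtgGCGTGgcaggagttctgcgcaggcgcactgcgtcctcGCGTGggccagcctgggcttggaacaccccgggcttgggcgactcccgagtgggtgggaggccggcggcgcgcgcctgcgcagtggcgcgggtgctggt
P4hb: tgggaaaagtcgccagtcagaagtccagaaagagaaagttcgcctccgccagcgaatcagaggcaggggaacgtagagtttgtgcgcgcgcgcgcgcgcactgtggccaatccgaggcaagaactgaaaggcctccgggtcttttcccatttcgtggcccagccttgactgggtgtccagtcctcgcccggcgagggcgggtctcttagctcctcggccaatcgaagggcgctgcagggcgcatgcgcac
Plod2: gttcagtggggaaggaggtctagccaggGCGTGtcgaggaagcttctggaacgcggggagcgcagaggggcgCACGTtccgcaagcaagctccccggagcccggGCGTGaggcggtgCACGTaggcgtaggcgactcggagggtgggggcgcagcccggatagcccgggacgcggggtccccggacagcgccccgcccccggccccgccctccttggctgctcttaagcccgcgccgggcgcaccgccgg

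The P4ha1 window held GCGTG 2 times, with first letters 136 and 99 bases before the start, and the P4hb window held neither motif. In Plod2 there were 2 matches of GCGTG and 2 of ACGTG, and none of the matches overlapped another. Plod1 and Plod3 had 1 GCGTG each and Loxl1 had none, so 4 of the 6 windows held a motif. Of 33469 rat promoter windows of the same length, 16.6% held ACGTG, 25.9% held GCGTG and 36.7% held either. These matches describe letters and are not evidence of binding.

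No member passed an adjusted p of 0.05 (limma, Benjamini-Hochberg over all kept probe sets of the array type) in any comparison, and no other probe set did either: percent called was 0 in each. At an unadjusted p under 0.05, 0 of 8 member probe sets on array A were called for VEGF against untreated, where 1.65% of all kept probe sets were. The counts on array A were also 0 of 8 for Ang1 against untreated (3.17% of all) and 0 of 8 for VEGF against Ang1 (1.99%). On array B, 1 of 2 was called for Ang1 against untreated (10.5% of all), 1 of 2 for VEGF against Ang1 (8.48%) and 0 of 2 for VEGF against untreated (0.72%). The called probe set was 1380474_at of Loxl2 both times. On array A the groups overlapped for all 8 members in each comparison, while 8.45% of all kept probe sets had groups that did not overlap for VEGF against untreated, 9.11% for Ang1 against untreated and 8.07% for VEGF against Ang1. Without the 2 RNAs that stood apart, groups did not overlap for 1 of 8 members in VEGF against untreated (15.7% of all kept probe sets), 5 of 8 in Ang1 against untreated (36.8% of all) and 0 of 8 in VEGF against Ang1 (18.2% of all). Those 5 were Lox 1368171_at, Plod2 and P4ha1, higher in Ang1, and Loxl1 and Plod3, lower in Ang1, each with 2 RNAs against 2. On array A the median difference of the 8 members was 0.02 for VEGF against untreated, where that of all kept probe sets was -0.01. For Ang1 against untreated these medians were 0.05 and -0.03, and for VEGF against Ang1 0.16 and 0.02. Over the other 7 RNAs the median of the 8 members was -0.10 for VEGF and 0.25 for Ang1 against untreated. For VEGF against Ang1 it was -0.24. The medians of all kept probe sets were then -0.00080, 0.0070 and -0.0026. The 8 members include both Lox probe sets.

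**Figure D1:**
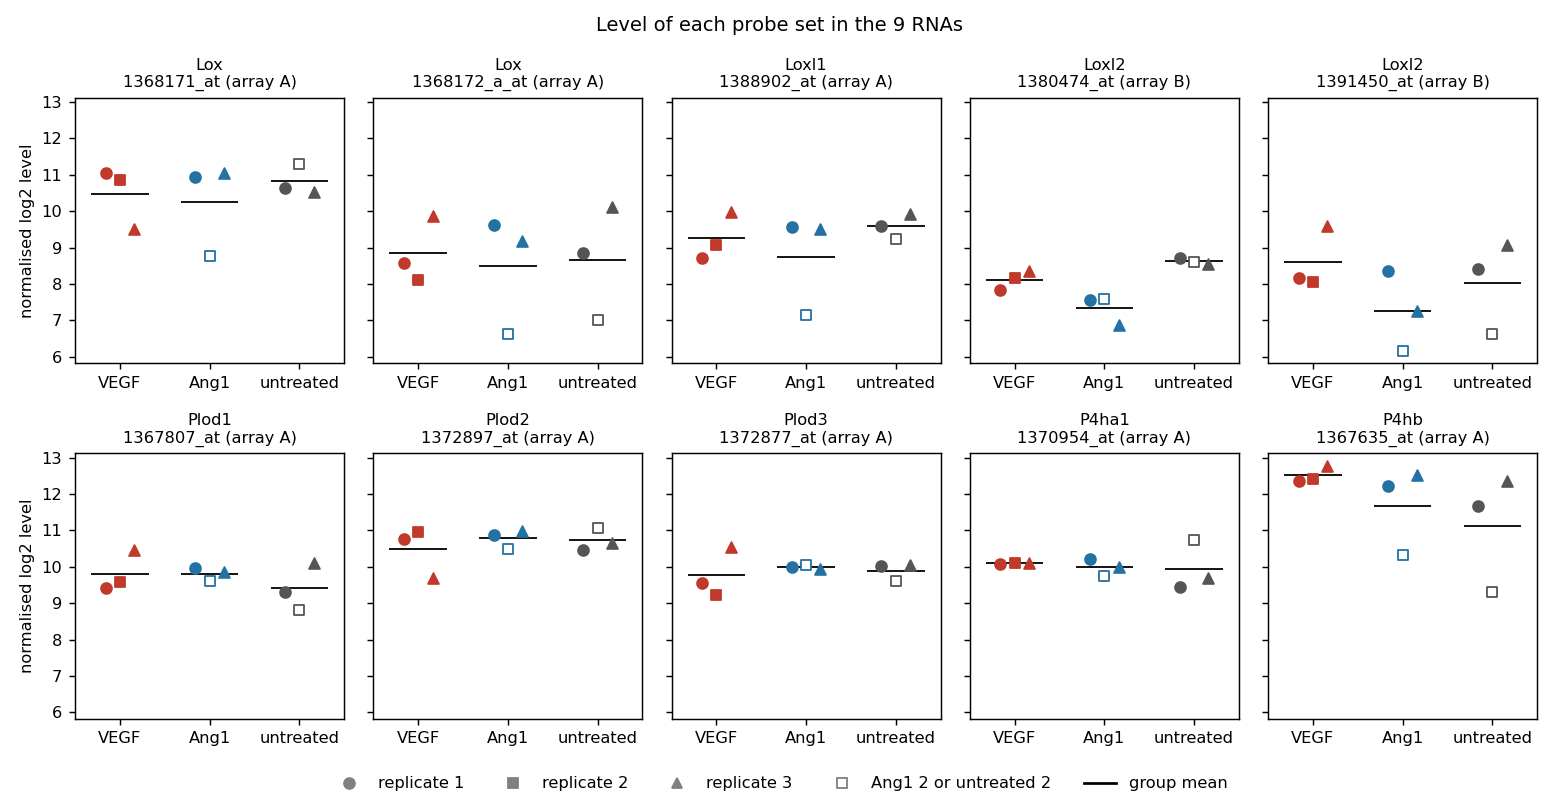
Normalised log2 level (vertical axis) of the 10 member probe sets in the VEGF, Ang1 and untreated RNAs. Symbols give the replicate, open squares mark Ang1 replicate 2 and untreated replicate 2, and bars are group means (n = 3). Loxl2 probe set 1380474_at is the panel in which the 3 groups do not overlap.

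Among the lysyl oxidases, Loxl2 gave the clearest separation. This enzyme crosslinks collagen IV of basement membranes and is secreted by endothelial cells, among others. Probe set 1380474_at had log2 levels of 7.83, 8.15 and 8.36 in VEGF RNAs, 7.57, 7.59 and 6.87 in Ang1 RNAs and 8.72, 8.60 and 8.55 in untreated RNAs. All Ang1 values thus lay below all VEGF values, and all VEGF values below all untreated ones. Group levels were 8.12 ± 0.27 for VEGF, 7.34 ± 0.41 for Ang1 and 8.63 ± 0.09 for untreated RNAs.

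For Ang1 against untreated the Loxl2 difference was -1.28 ± 0.31 (SE), a level 2.43 times lower, with a 95% interval of -1.96 to -0.61. Its unadjusted limma p was 0.00164 and its adjusted p 0.466, so it did not pass. For VEGF against untreated the difference was -0.51 ± 0.31, with an interval of -1.19 to 0.17, an unadjusted p of 0.126 and an adjusted p of 1.00 in limma. VEGF exceeded Ang1 by 0.78 ± 0.31, with an unadjusted p of 0.0286 and an adjusted p of 0.561. Groups that did not overlap in the same direction were found for 8.76% of kept probe sets on array B in Ang1 against untreated, for 3.91% in VEGF against untreated and for 6.01% in VEGF against Ang1. VEGF and Ang1 share the untreated RNAs in these comparisons.

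Leaving out Ang1 replicate 2 and untreated replicate 2, the Loxl2 differences at 1380474_at were -1.44 ± 0.34 for Ang1 against untreated, -0.53 ± 0.31 for VEGF against untreated and 0.91 ± 0.31 for VEGF against Ang1, with adjusted p of 0.621, 1.00 and 0.807 in limma. The separation of VEGF from Ang1 in all 3 replicates came with the normalisation. The deposited signals of Loxl2 at this probe set were 208.4, 282.9 and 353.6 in VEGF RNAs, 210.0, 262.8 and 42.9 in Ang1 RNAs, and 448.7, 395.7 and 390.4 in untreated RNAs. Brought to the scale of the other arrays, the Ang1 replicate 3 signal of Loxl2 was 113.2. On this scale untreated RNAs still stood above all 6 treated ones, whereas VEGF and Ang1 overlapped. Without Ang1 replicate 3 the difference of Ang1 from untreated was -1.06 ± 0.32 (limma, adjusted p = 0.244) and that of VEGF from Ang1 was 0.54 ± 0.32 (adjusted p = 0.359).

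The other Loxl2 probe set, 1391450_at, did not show this order. Its levels were 8.16, 8.06 and 9.59 in VEGF RNAs, 8.35, 6.16 and 7.25 in Ang1 RNAs and 8.40, 6.63 and 9.07 in untreated RNAs. All 3 groups overlapped, and the lowest values were those of Ang1 replicate 2 and untreated replicate 2. The differences were 0.57 ± 0.71 for VEGF against untreated, -0.78 ± 0.71 for Ang1 against untreated and 1.35 ± 0.71 for VEGF against Ang1. Without those 2 RNAs they were -0.13 ± 0.53, -0.96 ± 0.58 and 0.83 ± 0.53, and both remaining Ang1 values lay below both untreated ones, a pattern shared by 17.8% of kept probe sets of array B. The correlation between the 2 Loxl2 probe sets was 0.38 over 9 RNAs and 0.73 over 7, which share arrays and normalisation. Where the probe sets lie in the Loxl2 transcript was not analysed here.

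Cell type markers gave the following values beside the Loxl2 difference. Of 8 endothelial markers, 7 were on array A and all 7 were kept. Their summed deposited signal was 1528.8 to 2180.7 in VEGF, 1227.4 to 2170.8 in Ang1 and 1030.9 to 1746.7 in untreated RNAs. Fibroblast markers (7 of 8 kept, Pi16 dim) summed to 8815.8 to 16074 in VEGF, 9168.8 to 14044 in Ang1 and 9905.8 to 13906 in untreated RNAs. Smooth muscle markers (7 of 8 kept, Des dim) summed to 3259.2 to 4313.0 in VEGF, 2034.8 to 4657.2 in Ang1 and 2703.6 to 7408.2 in untreated RNAs. Macrophage markers (7 of 7 on the array kept) summed to 3770.0 to 5456.4 in VEGF, 3284.7 to 4708.9 in Ang1 and 2467.6 to 5173.6 in untreated RNAs. These ranges overlapped between groups for all 4 lists. The smooth muscle overlap with untreated rested on untreated replicate 2, at 2703.6. Untreated replicates 1 and 3, at 5955.3 and 7408.2, lay above every treated RNA. Over 7 RNAs, 6 of 7 smooth muscle markers were lower in VEGF and 5 of 7 in Ang1, with medians of -0.40 and -0.16 against untreated. For VEGF 3 were lower at an unadjusted limma p under 0.05, as were 1.62% of all kept probe sets, and 0 passed the adjusted p. The lowest single signals of kept markers on array A were 77.8 (fibroblast), 32.7 (smooth muscle), 16.7 (endothelial) and 6.8 (macrophage). The endothelial and macrophage values lie near or below the 16 added to every signal. On array B, which carries the Loxl2 probe sets, 1 endothelial, 1 fibroblast, 2 smooth muscle and 3 macrophage markers were kept. The macrophage markers there summed to 4334.6 to 7790.3 in VEGF, 1263.9 to 7002.2 in Ang1 and 2715.3 to 6905.9 in untreated RNAs, with Ang1 replicate 3 at its own deposited scale.

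Values of single markers stand beside the Loxl2 difference, none of them past the adjusted p. All 7 macrophage markers on array A were higher in Ang1 than in untreated RNAs, over 9 and over 7 RNAs, with medians of 0.53 and 0.34. VEGF was above untreated for 6 of them over 9 RNAs and for 7 over 7. Of the 3 macrophage markers on array B, 2 were higher and 1, Laptm5, was lower in Ang1 than in untreated RNAs in both fits. Laptm5 was also among the 7 on array A, where its other probe set went the opposite way. There Ang1 differed from untreated by 0.70 ± 0.38 over 9 RNAs and 0.64 ± 0.45 over 7. For VEGF against untreated, Laptm5 on array B was also lower over 7 RNAs, at -0.40 ± 0.48. Cd163, a scavenger receptor of macrophages, read 7.38, 7.20 and 7.40 in VEGF, 8.32, 8.84 and 7.54 in Ang1 and 7.38, 7.17 and 6.69 in untreated RNAs on array B. All Ang1 values of Cd163 lay above all others, and 8.73% of kept probe sets on array B had Ang1 wholly above untreated. The Cd163 difference from untreated was 1.15 ± 0.37 (limma, adjusted p = 0.466) over 9 RNAs and 0.89 ± 0.37 over 7. Adgre1, which encodes the macrophage antigen F4/80, read 11.52, 11.55 and 11.34 in VEGF, 12.17, 9.45 and 12.32 in Ang1 and 10.34, 10.62 and 10.32 in untreated RNAs. Ang1 replicate 2 was the lowest of the 9. Over 9 RNAs the Adgre1 difference for Ang1 was 0.88 ± 0.63, and over 7 it was 1.95 ± 0.25 (limma, adjusted p = 0.104). For VEGF against untreated it was 1.04 ± 0.63 and 1.16 ± 0.23.

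Endothelial markers were mixed. Of 7 on array A, 3 were higher and 4 lower in Ang1 than in untreated RNAs, and over 7 RNAs 5 were higher and 2 lower. Vwf, another endothelial marker on array A, was lower in Ang1 than in untreated RNAs, by -0.91 ± 0.46 over 9 RNAs and -0.77 ± 0.37 over 7. Erg, an endothelial transcription factor, differed between Ang1 and untreated by -0.82 ± 0.47 on array B and by 1.13 ± 0.50 on array A, and without the 2 RNAs by -0.59 ± 0.42 and 0.22 ± 0.29. Emcn, an endothelial surface sialomucin, read 7.57, 7.47 and 7.57 in VEGF, 6.32, 6.65 and 6.76 in Ang1 and 6.44, 6.66 and 6.77 in untreated RNAs. All VEGF values of Emcn lay above the rest. On array A 3.63% of kept probe sets had VEGF wholly above untreated. It exceeded untreated by 0.91 ± 0.26 in VEGF (limma, adjusted p = 1.00) and by 0.97 ± 0.25 over 7 RNAs, while Ang1 gave -0.05 ± 0.26 and -0.07 ± 0.27. The part of cell composition in the Loxl2 difference was not tested.

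**Figure D2:**
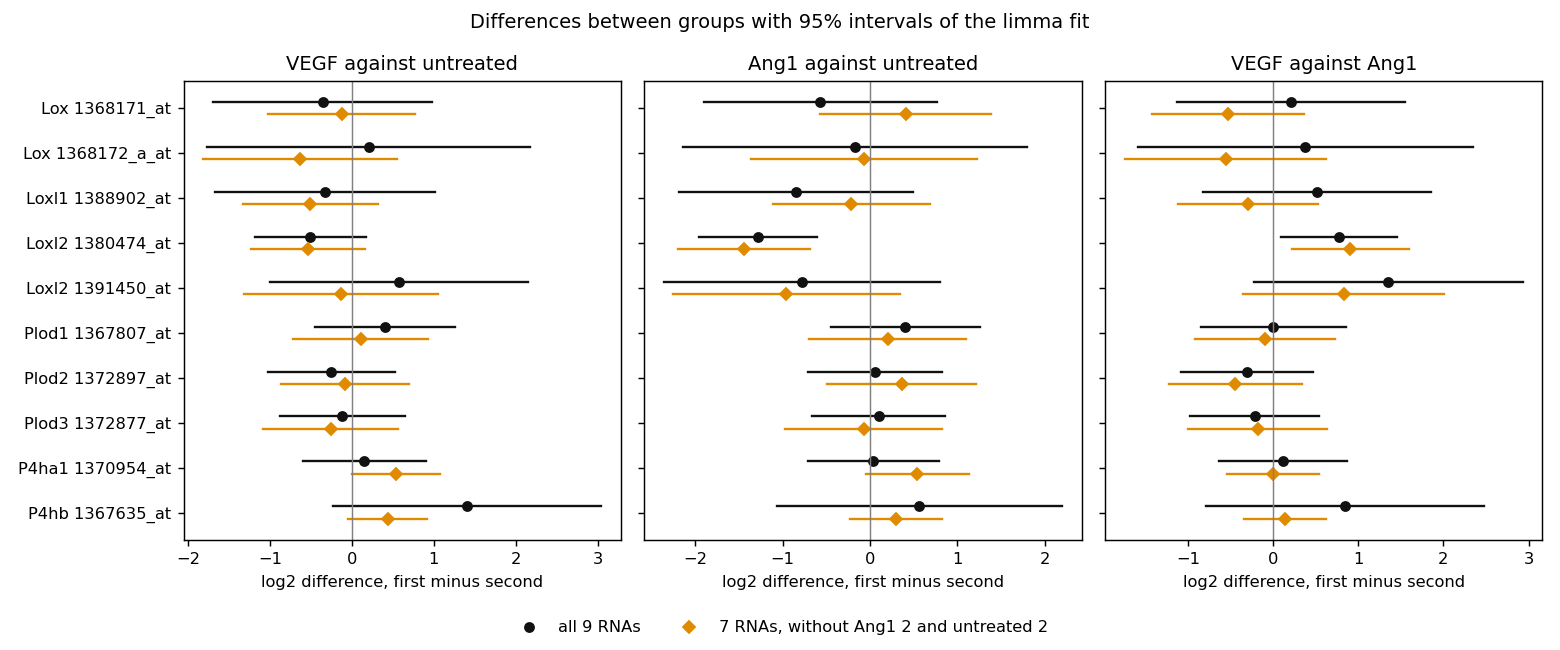
Log2 difference (horizontal axis, first group minus second) of each member probe set with 95% intervals of the limma fit, for all 9 RNAs (black circles) and for 7 RNAs without Ang1 replicate 2 and untreated replicate 2 (orange diamonds). The interval of Loxl2 1380474_at excludes 0 for Ang1 against untreated and for VEGF against Ang1 in both fits; P4ha1 lies higher against untreated in the fit with 7 RNAs.

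Lox, the founding lysyl oxidase of collagen and elastin, did not differ between groups beyond its spread. At probe set 1368171_at the levels were 11.05, 10.84 and 9.51 in VEGF RNAs, 10.94, 8.77 and 11.06 in Ang1 RNAs and 10.64, 11.30 and 10.53 in untreated RNAs. The low values were those of Ang1 replicate 2 and VEGF replicate 3, and the groups overlapped. Differences were -0.36 ± 0.60 for VEGF against untreated and -0.57 ± 0.60 for Ang1 against untreated. Without the 2 RNAs that stood apart, Ang1 against untreated turned to 0.41 ± 0.44 and VEGF against untreated was -0.12 ± 0.40, so the sign for Ang1 rested on those RNAs.

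The other Lox probe set, 1368172_a_at, ranked the RNAs differently. It read 8.58, 8.12 and 9.88 in VEGF, 9.62, 6.64 and 9.19 in Ang1 and 8.85, 7.01 and 10.11 in untreated RNAs. VEGF replicate 3, low at 1368171_at, was among the high values here, and untreated replicate 2, the highest of 9 there, was the second lowest. Over 9 RNAs the 2 Lox probe sets correlated at 0.19, and over 7 at -0.52. They thus gave no common measure of Lox across these RNAs. The differences at 1368172_a_at were 0.20 ± 0.89 for VEGF and -0.18 ± 0.89 for Ang1 against untreated. Without the 2 RNAs they were -0.63 ± 0.53 and -0.07 ± 0.58, so the sign for VEGF at this probe set rested on those RNAs.

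**Figure D3:**
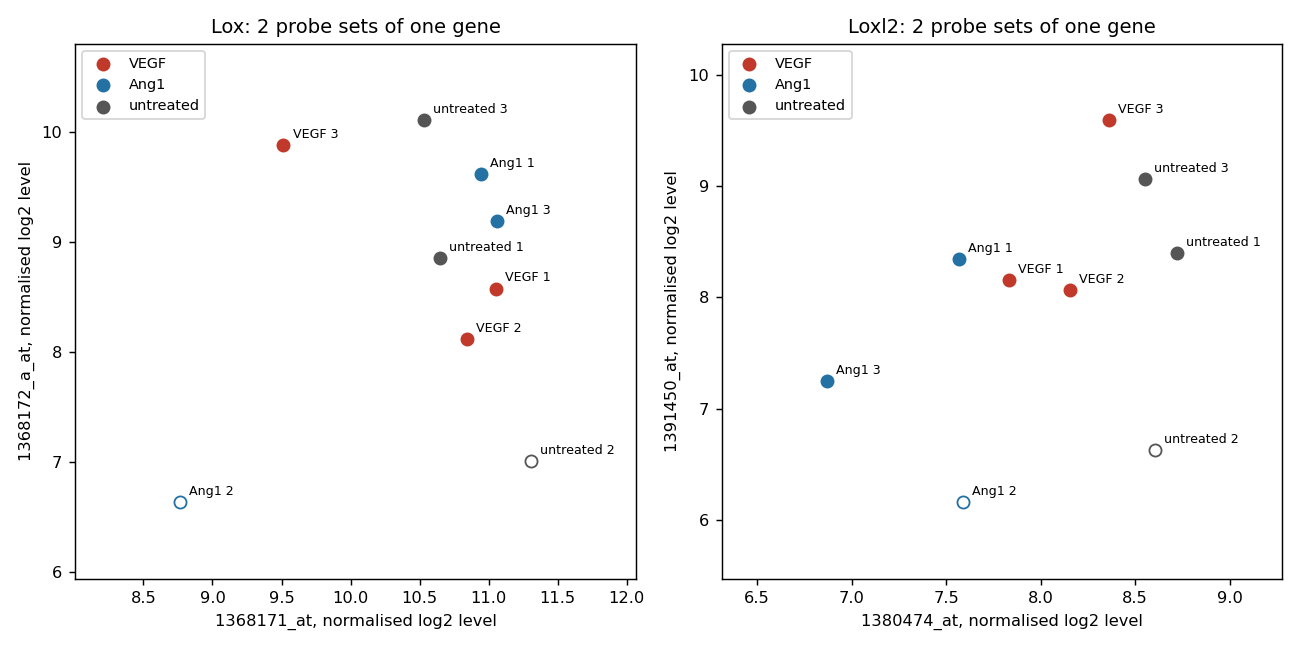
Normalised log2 levels of the 2 probe sets of Lox (left) and of Loxl2 (right), 1 point per RNA, coloured by group, with open circles for Ang1 replicate 2 and untreated replicate 2. The Lox probe sets part at VEGF replicate 3 and untreated replicate 2, and the Loxl2 probe sets part mainly at untreated replicate 2.

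Loxl1, which is known for its part in elastic fibre upkeep, had levels of 8.71, 9.06 and 9.98 in VEGF RNAs, 9.58, 7.14 and 9.50 in Ang1 RNAs and 9.60, 9.24 and 9.91 in untreated RNAs. Ang1 replicate 2 was the lowest of the 9, and the groups overlapped. The differences from untreated were -0.33 ± 0.61 for VEGF and -0.84 ± 0.61 for Ang1, and -0.51 ± 0.37 and -0.21 ± 0.40 without the 2 RNAs. Loxl1 correlated with Lox probe set 1368172_a_at at 0.80 over 9 RNAs and 0.85 over 7, and with Lox probe set 1368171_at at 0.51 and -0.66.

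No lysyl hydroxylase differed between the groups beyond its spread. Plod1 acts on lysines of the collagen helix. Its levels were 9.41, 9.58 and 10.45 in VEGF, 9.96, 9.61 and 9.87 in Ang1 and 9.31, 8.82 and 10.10 in untreated RNAs. The Plod1 difference was 0.40 ± 0.39 for VEGF and 0.40 ± 0.39 for Ang1 against untreated, with intervals of -0.45 to 1.26 and -0.45 to 1.25. The lowest Plod1 value was that of untreated replicate 2, and without the 2 RNAs the differences were 0.11 ± 0.37 and 0.20 ± 0.40.

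Plod2 hydroxylates lysines of the telopeptides, the short ends where crosslinks form. It read 10.77, 10.96 and 9.70 in VEGF, 10.88, 10.49 and 10.97 in Ang1 and 10.46, 11.06 and 10.65 in untreated RNAs. VEGF replicate 3 was the lowest of the 9 and untreated replicate 2 the highest. The Plod2 difference was -0.25 ± 0.35 for VEGF and 0.05 ± 0.35 for Ang1 against untreated. The Ang1 interval, -0.72 to 0.82, leaves room for changes in either direction. Over 7 RNAs the Plod2 differences were -0.08 ± 0.35 for VEGF and 0.36 ± 0.38 for Ang1. Both remaining Ang1 values lay above both untreated ones, as for 18.2% of kept probe sets on array A.

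Plod3, which also adds sugars to hydroxylysine, read 9.55, 9.22 and 10.55 in VEGF, 9.99, 10.06 and 9.93 in Ang1 and 10.02, 9.61 and 10.04 in untreated RNAs. The 3 Ang1 values were close together, with an SD of 0.06, while VEGF RNAs held both the lowest and the highest value of the 9. Plod3 differed from untreated by -0.12 ± 0.34 for VEGF and 0.10 ± 0.34 for Ang1, and by -0.26 ± 0.37 and -0.07 ± 0.40 without the 2 RNAs. Within the lysyl hydroxylases, Plod2 and Plod3 ran opposite ways across the RNAs, with a correlation of -0.79 over 9 and -0.77 over 7. Plod2 and Lox probe set 1368171_at ran together, at 0.70 and 0.96. In both pairs VEGF replicate 3 lay at an extreme: it was the lowest of 7 for Plod2 and Lox 1368171_at and the highest for Plod3. That RNA also had the highest actin 3′ to 5′ ratio on both array types. The part of the ratio in these levels was not tested.

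Of the prolyl 4-hydroxylase subunits, P4ha1 (the catalytic alpha subunit) read 10.06, 10.11 and 10.12 in VEGF RNAs, 10.21, 9.74 and 9.99 in Ang1 RNAs and 9.44, 10.72 and 9.68 in untreated RNAs. The VEGF values were nearly equal, with an SD of 0.03, and untreated replicate 2 was the highest of the 9. Differences from untreated were 0.15 ± 0.34 for VEGF and 0.04 ± 0.34 for Ang1. Without the 2 RNAs that stood apart they were 0.54 ± 0.24 (1.45-fold higher) and 0.54 ± 0.26, with unadjusted limma p of 0.0497 and 0.0679 and an adjusted p of 1.00 for both. In this fit P4ha1 was the 1 member of 8 called on array A for VEGF against untreated, where 3.17% of all kept probe sets were. Every remaining treated value then lay above both untreated values. Among all kept probe sets of array A, 7.86% had VEGF wholly above untreated and 18.2% had Ang1 wholly above untreated in those 7 RNAs. VEGF against Ang1 gave 0.12 ± 0.34 over 9 RNAs and -0.0025 ± 0.24 over 7.

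P4hb, the beta subunit, behaved otherwise. Its levels were 12.37, 12.41 and 12.78 in VEGF RNAs, 12.21, 10.31 and 12.52 in Ang1 RNAs and 11.68, 9.31 and 12.37 in untreated RNAs. The lowest 2 values came from Ang1 replicate 2 and untreated replicate 2, at -2.06 and -3.06 from the median of the other 7, which themselves spanned 1.10. P4hb exceeded untreated by 1.40 ± 0.74 in VEGF RNAs (limma, adjusted p = 1.00) and by 0.56 ± 0.74 in Ang1 RNAs (adjusted p = 0.954). In the other 7 RNAs the differences were 0.44 ± 0.22 and 0.30 ± 0.24, with the adjusted p at 1.00 for both. The size of the P4hb difference for VEGF thus rested largely on those RNAs.

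Within the same enzyme, untreated replicate 2 was the highest RNA for P4ha1 and the lowest for P4hb. The 2 subunits correlated at -0.36 over 9 RNAs and at 0.69 over 7. In that RNA, Lox 1368171_at and Plod2 were also at their highest, and Plod1 at its lowest. Ang1 replicate 2 was the lowest of 9 for both Lox probe sets, Loxl1 and Loxl2 1391450_at, but lay within the range of the other 7 for Loxl2 1380474_at and for Plod1, Plod2, Plod3 and P4ha1. The SD over all 9 RNAs was 1.18 for P4hb and 0.34 over 7. For Plod2 it was 0.42 and 0.45.

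**Figure D4:**
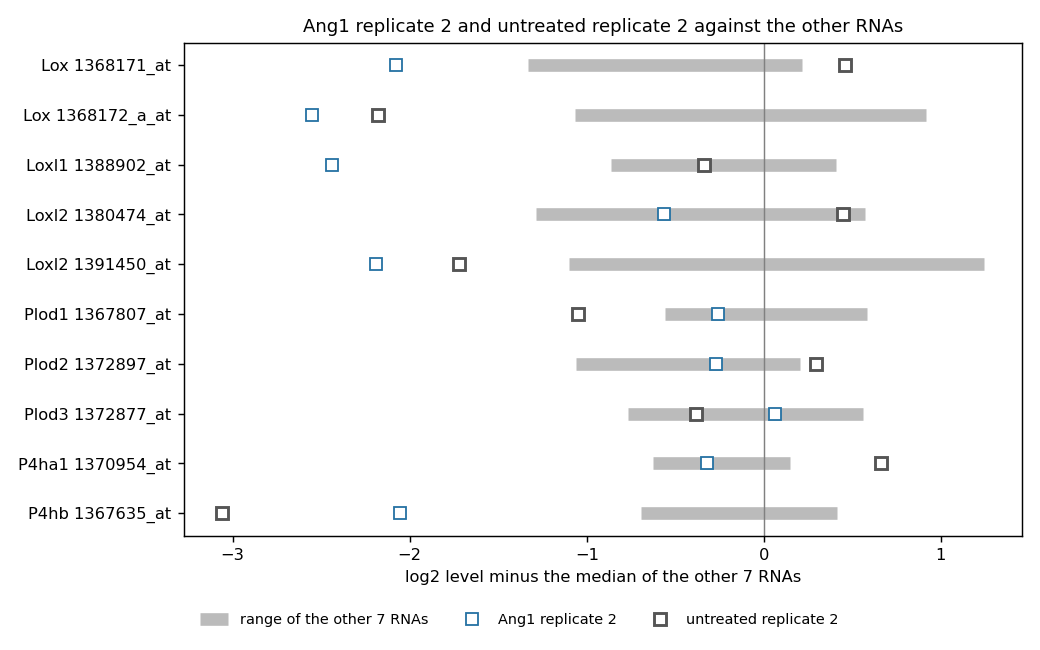
Log2 level of Ang1 replicate 2 (thin blue squares) and untreated replicate 2 (thick dark squares) for each member probe set, minus the median of the other 7 RNAs (horizontal axis). Grey bars span the other 7 RNAs. Untreated replicate 2 lies at -3.06 for P4hb and at 0.66 for P4ha1.

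Other genes of collagen maturation gave no adjusted call either. Of 27 listed processing genes, 15 were kept on array A: 9 were higher and 6 lower than untreated in VEGF, and likewise 9 and 6 in Ang1. The list median was 0.10 for VEGF and 0.11 for Ang1, where all kept probe sets had -0.01 and -0.03. Over the other 7 RNAs, 6 were higher and 9 lower in both comparisons, with medians of -0.07 for VEGF and -0.13 for Ang1. Crtap, a partner of prolyl 3-hydroxylase, was the one gene of the list on array A with an unadjusted p under 0.05 against untreated over 9 RNAs, for Ang1. It read 6.84, 7.13 and 6.84 in VEGF, 7.35, 8.62 and 6.95 in Ang1 and 6.71, 6.71 and 5.18 in untreated RNAs. Both treated groups thus lay above untreated, where 3.63% of kept probe sets on array A had VEGF, and 3.57% Ang1, wholly above untreated. Crtap differed from untreated by 0.74 ± 0.50 in VEGF and by 1.44 ± 0.50 in Ang1 (limma, adjusted p = 0.953). Over 7 RNAs these differences were 1.00 ± 0.40 and 1.23 ± 0.44. Serpinh1, the collagen chaperone Hsp47, read 5.95 in Ang1 replicate 2 and 5.57 in untreated replicate 2 and 10.22 to 11.20 in the other 7 RNAs, a split like that of P4hb.

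Genes of fibrillar collagens, elastin and other elastic fibre proteins were spread around 0. Of 14 kept collagen and elastic fibre genes on array A, 7 were higher and 7 lower in VEGF, and 5 higher and 9 lower in Ang1, than in untreated RNAs, with list medians of 0.01 and -0.07. Over 7 RNAs, 7 were higher in VEGF and 6 in Ang1, with medians of -0.01 and -0.06. Col5a3, a chain of collagen V, was the one with an unadjusted p under 0.05, for VEGF against Ang1. It read 8.20, 8.18 and 9.07 in VEGF and 6.52, 4.53 and 8.32 in Ang1 RNAs, which overlap, a difference of 2.03 ± 0.87 (limma, adjusted p = 0.972). Without Ang1 replicate 2 and untreated replicate 2 it was 1.11 ± 0.51 (adjusted p = 0.999).

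Folding partners of the endoplasmic reticulum, which work beside P4hb, were higher than untreated for 11 of 15 kept genes in VEGF and for 11 of 15 in Ang1, with medians of 0.38 and 0.13. With 7 RNAs the counts were 9 and 8 of 15 and the medians 0.04 and 0.04, so the shift rested on those RNAs. Ero1a, the oxidase that recharges P4hb, read 8.57, 8.15 and 8.55 in VEGF, 8.60, 8.69 and 8.67 in Ang1 and 7.52, 8.03 and 8.21 in untreated RNAs. All 3 Ang1 values lay above all untreated ones, as for 3.57% of kept probe sets on array A, while VEGF overlapped untreated. The Ero1a difference for Ang1 was 0.73 ± 0.28 (limma, adjusted p = 0.953) and 0.79 ± 0.33 without the 2 RNAs. Ero1b of the same list went the other way over 9 RNAs, at -1.30 ± 0.67 for Ang1 against untreated (limma, adjusted p = 0.953).

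HIF-1 is the hypoxia factor known to raise P4ha1, Plod2 and Lox in several cell types. Of 19 kept HIF-1 target genes on array A, 11 were higher in VEGF and 12 in Ang1 than in untreated RNAs, with medians of 0.20 and 0.11. Over 7 RNAs these counts were 15 and 15 of 19, with medians of 0.19 and 0.34. Tpi1, a glycolytic enzyme, differed from untreated by 1.09 ± 0.47 in VEGF (limma, adjusted p = 1.00), with an unadjusted p of 0.0398. Over 7 RNAs the Tpi1 difference was 0.59 ± 0.29 and its unadjusted limma p 0.0736. Ldha, which makes lactate from pyruvate, read 11.83, 11.30 and 11.44 in VEGF, 12.36, 10.39 and 12.64 in Ang1 and 10.66, 11.12 and 11.29 in untreated RNAs. Ang1 replicate 2 was the lowest of the 9 and the other Ang1 RNAs the highest. The Ldha difference for Ang1 against untreated was 0.77 ± 0.50 over 9 RNAs and 1.39 ± 0.26 over 7 (limma, adjusted p = 0.953 and 0.523). For VEGF against Ang1 it was -0.27 ± 0.50 and -0.86 ± 0.24. On array B, Ndrg1 was lower in VEGF than in Ang1 by a difference of -1.47 ± 0.41 (limma, adjusted p = 0.561), and of -1.14 ± 0.38 without the 2 RNAs.

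Of 9 kept genes of TGF-beta signalling, a pathway known to raise lysyl oxidases, 2 were higher and 7 lower in VEGF, and 4 higher and 5 lower in Ang1. Their medians were -0.12 and -0.0022. Over 7 RNAs 5 of 9 were higher in VEGF and 3 of 9 in Ang1, with medians of 0.04 and -0.12.

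Copper and ascorbate serve as cofactors of the lysyl oxidases and the hydroxylases. A list of genes for their supply, which also counts the copper enzyme Sod3, had 7 genes kept on array A. Of these 7, 1 was higher and 6 lower in VEGF, and 2 higher and 5 lower in Ang1, with medians of -0.26 and -0.58. Over 7 RNAs 1 was higher in VEGF and 4 in Ang1, with medians of -0.17 and 0.27, so the direction of the list in Ang1 rested on those RNAs. Atox1, the chaperone that hands copper to the secretory pathway where lysyl oxidases are loaded, read 8.58, 8.91 and 9.22 in VEGF, 8.78, 9.80 and 9.38 in Ang1 and 9.78, 10.20 and 9.73 in untreated RNAs. All VEGF values lay below all untreated ones, as for 4.81% of kept probe sets on array A. The Atox1 difference for VEGF was -0.998 ± 0.33 (limma, adjusted p = 1.00) and -0.85 ± 0.31 over 7 RNAs.

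The genes whose levels ran most like each member were ranked by Pearson correlation over the 7 RNAs, and are given as a description. For Loxl2 1380474_at they were Uqcc6 (0.96 over 7 RNAs, 0.95 over 9), Zfp521 (0.96 and 0.84) and Wfdc2 (0.95 and 0.91). For Lox 1368171_at they were Laptm4a (0.99 and 0.61), Fndc3b (0.99 and 0.93) and Rragc (0.99 and 0.51). For Loxl1 they were Ccn4 (0.98 and 0.80), Cox19 (0.98 and 0.58) and Myrf (0.97 and -0.32). Plod1 ran most like Cnppd1 (1.00 and 0.74), Tgfbi (0.99 and 0.51) and Fgfr1 (0.98 and 0.87). Plod2 ran most like Tbk1 (0.99 and 0.85), Saraf (0.99 and 0.83) and Smim14 (0.98 and 0.55). Plod3 ran most like Heatr6 (1.00 and 0.82), Dbnl (0.99 and 0.19) and Dtnb (0.99 and 0.97). P4ha1 ran most like Mtcl1 (0.98 and 0.95), Urgcp (0.98 and 0.05) and the glycolytic enzyme gene Pgk1 (0.98 and -0.17). For P4hb the genes were Atf7ip, Pygo2 and Akr1c3, at 0.96 to 0.98 over 7 RNAs and -0.33 to 0.43 over 9. These correlations share arrays and normalisation, and were picked as the highest among all kept genes.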

How the data were processed

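Total RNA of 9 aortic ring cultures was measured on 2 Affymetrix array types. The deposited values are intensity signals on a linear scale, and the authors made them with MAS5 (version not given in the sources used here), as the submitters' processing notes record. Gene names came from the platform annotation and promoter windows from RefSeq (build GRCr8); the positions of the probes were not used here. From these signals log2(signal + 16) was computed and quantile normalised within each array type. The 57 control probe sets per type were left out and probe sets with a mean at or above the 40th percentile kept, 9520 on array A and 9166 on array B. Groups were compared in R 4.3.3 with limma 3.58.1 (linear model over the 9 arrays, intensity trend, Benjamini-Hochberg within the array type at 0.05), after testing on simulated data. An exact test of 3 against 3 RNAs cannot go below p = 0.1, and the number of arrays limits the precision. The members, the 13 other gene lists and the tests were chosen with earlier results of these data known. For genes other than the members, each list was summarised by its brightest probe set per gene. Every member probe set was named. Also named were the 2 genes of smallest p per list and comparison where described, and the 3 most alike genes per member. Serpinh1 in single RNAs and the markers Cd163, Adgre1, Laptm5, Erg, Vwf and Emcn were named after their values were seen. Alternatives are given in the closing section.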

Additional observations from a re-analysis of the deposited data

How the results depend on the processing

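Under 18 alternatives (9 leaving out 1 RNA each and 9 of processing), no member passed an adjusted p of 0.05 in any comparison; the highest number called among all probe sets was 24. Of 432 recomputed differences of the brightest probe set per gene, 390 kept their sign and 42 reversed. Loxl2 1380474_at kept its sign throughout in all 3 comparisons: -1.44 to -1.06 for Ang1 against untreated (unadjusted limma p 0.000383 to 0.00808, adjusted p 0.124 to 0.651). Its range was -0.64 to -0.36 for VEGF against untreated (unadjusted limma p 0.0267 to 0.339). For VEGF against Ang1 it was 0.54 to 0.91 (unadjusted limma p 0.0132 to 0.119). Loxl2 1391450_at was not in these counts, and without the 2 RNAs that stood apart its VEGF difference from untreated turned from 0.57 to -0.13. Median centring moved the median of all kept probe sets by -0.23 (array A) and -0.20 (array B) for Ang1 against untreated and by 0.15 and 0.22 for VEGF against Ang1; changes below compare with these shifts. Under it, Ang1 against untreated gave P4ha1 -0.47, P4hb -0.097, Plod2 -0.54 and Plod3 -0.37, VEGF against Ang1 gave Plod3 0.054, and VEGF against untreated gave P4ha1 -0.12. Array quality weights gave Lox 0.26 and Plod3 -0.011 for Ang1 against untreated, Lox 0.14 and Plod2 0.22 for VEGF against untreated, and Lox -0.12, Loxl1 -0.48, P4ha1 -0.058 and Plod1 -0.34 for VEGF against Ang1. Without Ang1 replicate 2 and untreated replicate 2, Ang1 against untreated gave Lox 0.41 and Plod3 -0.075, and VEGF against Ang1 gave Lox -0.53, Loxl1 -0.29, P4ha1 -0.0025 and Plod1 -0.097. With log2(signal + 1), Plod1 gave -0.00020 for VEGF against Ang1. The cause of these reversals was not tested.

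Leaving out 1 RNA at a time, Ang1 against untreated ranged over -0.98 to 0.18 for Lox, -0.22 to 0.41 for P4ha1, -0.34 to 1.19 for P4hb, -0.078 to 0.22 for Plod2 and -0.041 to 0.17 for Plod3. VEGF against Ang1 ranged over -0.54 to 0.69 for Lox, -0.30 to 0.93 for Loxl1, -0.0040 to 0.23 for P4ha1, -0.32 to 0.20 for Plod1, -0.55 to 0.081 for Plod2 and -0.61 to 0.058 for Plod3. VEGF against untreated ranged over -0.65 to 0.12 for Lox, -0.10 to 0.53 for P4ha1, -0.49 to 0.14 for Plod2 and -0.51 to 0.16 for Plod3. Same-numbered RNAs deviated from their group means with correlations between -0.15 and 0.49 (array A) or between -0.21 and 0.29 (array B). On both types 7 of 9 same-numbered pairs exceeded 0.1, and 9 of 9 RNAs correlated best with their own number. No label ties these numbers to animals, so the main fit left the RNAs unpaired. Its SEs and p-values take no account of any pairing. With the replicate block 0 members passed the adjusted p, and the unadjusted calls among all probe sets were 294, 415 and 408 on array A (VEGF against untreated, Ang1 against untreated, VEGF against Ang1), where the fit without it gave 157, 302 and 189. List counts without the 2 RNAs were added after seeing the data.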

Other observations

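Marker lists of less common cell types gave few measurable genes. Of adipocyte markers 3 were kept on array A, of which 2 were higher and 1 lower in VEGF and 0 higher and 3 lower in Ang1 than in untreated RNAs. Chondro-osteogenic markers had 2 kept genes, with 2 higher in VEGF and 1 higher in Ang1, and mesothelial markers had 1, lower in both. None of these passed an unadjusted limma p of 0.05 with all 9 RNAs.

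Slc31a2, a copper transporter, was listed on both array types. On array B it read 7.37, 7.22 and 7.71 in VEGF, 6.73, 6.50 and 7.67 in Ang1 and 5.66, 5.54 and 7.13 in untreated RNAs. All VEGF values thus lay above all untreated ones, as for 2.53% of kept probe sets on that array type. The difference for VEGF was 1.32 ± 0.50 (limma, adjusted p = 1.00), and 1.02 ± 0.47 without Ang1 replicate 2 and untreated replicate 2. On array A its other probe set read 9.36, 9.03 and 7.59 in VEGF, 9.19, 5.02 and 9.37 in Ang1 and 8.77, 9.12 and 8.29 in untreated RNAs, and the groups overlapped. Commd1, which takes part in copper balance, read 8.80, 8.51 and 7.84 in VEGF, 8.17, 7.38 and 7.88 in Ang1 and 9.08, 8.59 and 8.38 in untreated RNAs. All 3 Ang1 values of Commd1 lay below all untreated ones, as for 5.54% of kept probe sets on array A. Its difference was -0.87 ± 0.35 (limma, adjusted p = 0.953) with an unadjusted p of 0.0313. Without Ang1 replicate 2 and untreated replicate 2 the Commd1 difference was -0.72 ± 0.39, with an unadjusted limma p of 0.0934.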
